A study of Arabidopsis thaliana with 9 samples.

Results

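The genes described here are 40 plastid-encoded genes for subunits of the photosynthetic complexes, out of 33602 gene models counted in each library. They were taken by identifier: 12 belong to photosystem II, 6 to photosystem I (ycf4, an assembly factor, included), 3 to the cytochrome b6f complex, 6 to the ATP synthase, 12 to the NDH complex and 1 is the large subunit of Rubisco. RNA came from aerial organs of Arabidopsis thaliana of the Col0 ecotype, 21 days old, untreated, and kept on soil at 21 °C and 65% humidity with 8 h of light and 16 h of dark. The 3 genotypes were wild type (WT), cuc2-3 and CUC2gm-4, with 3 libraries each, here called by genotype and replicate number. The labels describe neither allele, do not say how many plants or lines stand behind a library, and do not say whether replicates were separate sets of plants, so p-values measure the spread between these samples. Both mutants are called knock-outs in the series' design text, but counts of the CUC2 transcription factor gene were 656 to 1062 in CUC2gm-4, 13 to 55 in WT and 11 to 38 in cuc2-3.

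The plastid genome of land plants keeps the genes for the core subunits of the photosynthetic complexes, and the nucleus encodes the remaining subunits and the small subunit of Rubisco. Photosystem II splits water, the cytochrome b6f complex passes electrons on to photosystem I, the ATP synthase uses the resulting proton gradient, and NDH carries electrons around photosystem I. Most plastid genes are transcribed together with their neighbours, by a bacterial-type polymerase encoded in the plastid with nuclear sigma factors and by a phage-type nuclear polymerase. Mature plastid messenger RNA mostly lacks the long poly(A) tail of nuclear messenger RNA, and short A tails mark plastid RNA for decay. The libraries were made after a bead selection for messenger RNA, so a plastid level here is the level of plastid RNA that came through that selection.

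The plastid genes carry no names in the files. A name was given where the length of the model equals that of a coding sequence in the RefSeq TAIR10.1 plastid record of 154478 bases, which applied to 37 of 40: 28 had a length held by a single reference gene, and 9 shared their length and were settled by matched neighbours on both sides. ATCG01050, ATCG00890 and ATCG01250 of the NDH complex matched none and are given by identifier. Positions below are those of TAIR10.1 (the files, built on TAIR10, give none), and the named members are coding sequences on the plastid genome, with atpF, petB, petD and ndhA interrupted by an intron.

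Bead selection of messenger RNA commonly captures runs of A, so the stretch of 30 coding bases around the longest such run is shown for 6 members that differ in level, on the sense strand with the run in capitals. The run of atpB, at Pltd:54091-54120 on the minus strand, is the longest among the 37 named coding sequences, where the longest run had a median of 5 bases and a range of 2 to 10. The others lie at Pltd:62075-62104 (plus), Pltd:111220-111249 (minus), Pltd:55491-55520 (plus), Pltd:39059-39088 (minus) and Pltd:1355-1384 (minus), in the order given.
atpB: tcgatacgtgAAAAAAAAAAcctgggacgt
petA: atcgtcccaatAAAAAAAAtattcttgtga
ndhF: aattacagtggAAAAAAAAgtggctccttc
rbcL: ggggttatccgcgAAAAActatggtagagc
psaB: agtttcgtggttcAAAAAtgctgaatctcg
psbA: ataactagcactgAAAAccgtctttacatt

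The shortest of the photosystem II members, psbM, had the smallest adjusted p of the members when CUC2gm-4 was set against cuc2-3. Its whole coding sequence of 105 bases (Pltd:28707-28811, minus strand) is shown for that, again with the longest A run in capitals.
psbM: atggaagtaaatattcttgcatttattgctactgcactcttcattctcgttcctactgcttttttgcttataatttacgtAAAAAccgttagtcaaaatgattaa

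The coding sequences of psbD and psbC, the D2 protein and the inner antenna protein of photosystem II, share 53 bases (Pltd:33720-33772, plus strand), shown because a read inside them fits both genes.
psbD/psbC: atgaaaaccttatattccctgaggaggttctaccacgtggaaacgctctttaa
The coding sequences of atpB and atpE share 4 bases. The libraries were stranded, but the counting is not stated to use strand, so overlapping and antisense transcripts cannot be told apart here.

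Total counts ran from 17361433 to 27734410 per library. The 5 leaf markers (light-harvesting, Rubisco small subunit and Rubisco activase genes) summed to between 27225 and 66927 normalised CPM (counts scaled to library size with TMM factors). The 6 root markers summed to 1.23 to 4.18, with the root hair gene EXPA7 at no more than 1 read in any library, and 3 floral markers to 0.164 to 0.639. The library cuc2-3 3 stood apart: the 1 cytosolic ribosomal RNA locus with reads, AT3G41768, was at 121 normalised CPM there and at 0.748 to 11.8 in the other libraries, and 146 mitochondrial genes summed to 219 there and to 15.1 to 56.8 elsewhere. In the order WT 1 to 3, cuc2-3 1 to 3 and CUC2gm-4 1 to 3, that ribosomal RNA locus was at 0.748, 1.06, 1.94, 3.94, 1.86, 121, 4.62, 7.12 and 11.8 normalised CPM. These levels move with most of the member levels given below, and their part in them was not tested. The 8 plastid ribosomal RNA models were at 0 to 0.071 in sum, in files from which reads with several equally good placements had been dropped. ATCG00890 and ATCG01250, which share a length of 1170 bases, had no read in any library, and no statement on them can be made.

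**Figure D1:**
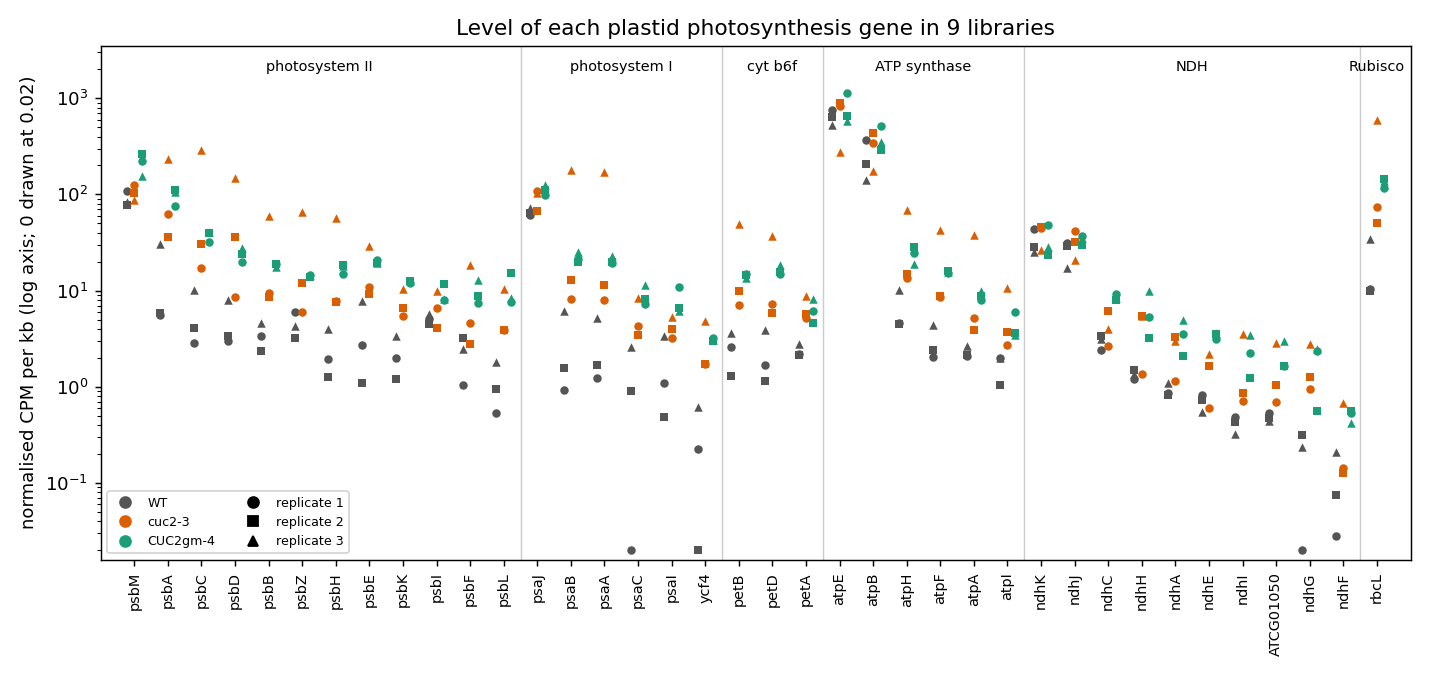
Each point is the level of a gene in 1 library, as normalised CPM per kb on a log axis, for the 38 members with reads, grouped by complex and ordered by mean level within it; color gives the genotype and shape the replicate. Most grey WT points lie below the others, while atpE, atpB, ndhK and ndhJ overlap between genotypes, and the cuc2-3 replicate 3 triangle is the highest point of 20 of the 35 members that had reads in every library.

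Per length, the WT levels spread over a wide range. In WT, atpE was the highest member at 646 ± 114 normalised CPM per kb (SD, n = 3), followed by atpB at 240 ± 118, psbM at 90.03 ± 16.8, psaJ at 65.5 ± 5.92 and ndhK at 32.2 ± 9.82. Each of the 4 after atpE lay below the whole WT range of the one before it. From ndhJ (25.8 ± 7.69) downward neighbours in the order overlapped in most cases, with rbcL at 18.2 ± 13.9 and psbA at 13.9 ± 14.2, down to ndhF at 0.103 ± 0.0932. Thus rbcL and psbA, among the most abundant RNAs of leaf plastids, ranked 7 and 8 of 40 in these libraries. Across the 34 named and tested members, the longest coding A run and the WT level per kb had a Spearman rho of -0.01, the longest A run in the 200 bases after the stop codon and that level a rho of 0.30, and the GC percentage and that level a rho of 0.47. These describe genes of the same 3 libraries, many of them transcribed together, and carry no test.

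All 40 members together took 0.0856%, 0.0698% and 0.0655% of all counts in WT 1 to 3. The share was 0.117%, 0.137% and 0.325% in cuc2-3 1 to 3 and 0.187%, 0.147% and 0.153% in CUC2gm-4 1 to 3. All 6 mutant libraries thus lay above all 3 WT libraries. The exact Clopper-Pearson 95% interval of each share reached at most 1.78% of the share to either side and covers counting error only. In bulk RNA, fewer cells of a type and less RNA per cell cannot be told apart.

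The make-up of these counts differed as much as their sum. The neighbours atpB and atpE gave 87.6%, 83.9% and 67.0% of the members' counts in WT 1 to 3 and 68.7%, 72.3% and 11.6% in cuc2-3 1 to 3. In CUC2gm-4 1 to 3 they gave 66.4%, 50.0% and 51.6%. The share of photosystem II genes was 3.37%, 4.42% and 12.0% in WT, 11.2%, 10.98% and 29.8% in cuc2-3, against 11.8%, 19.9% and 17.8% in CUC2gm-4. In both shares WT 3 lay closer to cuc2-3 1 than to WT 1 and WT 2. Without atpB and atpE the members summed to 121, 109 and 210 normalised CPM in WT, to 383, 386 and 2826 in cuc2-3, against 617, 693 and 710 in CUC2gm-4. By contrast, atpB and atpE together were at 859, 567 and 425 in WT, 841, 1008 and 370 in cuc2-3, against 1217, 693 and 757 in CUC2gm-4, so the genotypes overlapped.

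**Figure D2:**
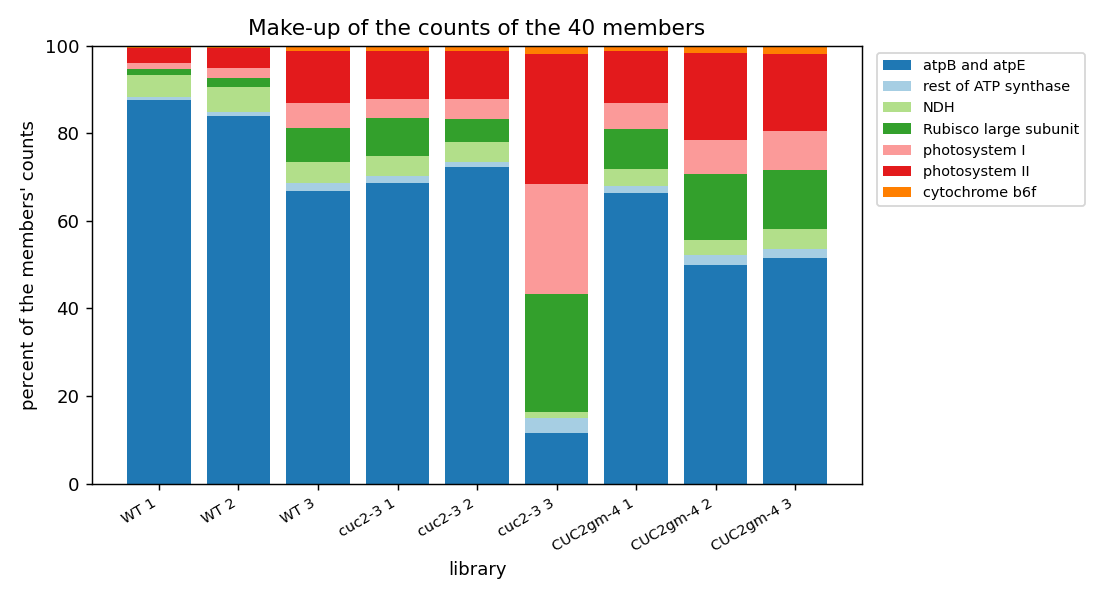
Stacked bars give the percentage of the members' counts that falls to each complex in each of the 9 libraries, with atpB and atpE apart from the other ATP synthase genes. The atpB and atpE part runs from 87.6% in WT 1 down to 11.6% in cuc2-3 3.

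For the tests, genes with at least 1 CPM in at least 3 libraries were kept, which left 18291 genes and 35 of the 40 members. Besides the pair without reads, psbI, psaI and ndhE were left out. Of the 35, 11 had no WT library at 1 CPM and so entered through the mutants, and 16 had all 3 WT libraries at that level. Counts over the 35 members are therefore a description of the kept genes and do not stand for all 40.

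Set against WT, members were higher in CUC2gm-4 in nearly every case, but whether a member passed depended on the model. Of the 38 members with reads, 34 had all 3 CUC2gm-4 libraries above all 3 WT libraries, and the exceptions were atpB, atpE, ndhJ and ndhK. Among the 35 tested members it was 31, beside 5.87% of all tested genes that lay apart in that direction. The median log2 fold change of the tested members was 2.30, with a range of 0.05 to 3.31, and that of all tested genes was 0.00. In edgeR's quasi-likelihood fit on genotype alone, 0 of 35 members had an adjusted p below 0.05, as did 0.0164% of all tested genes. At an unadjusted p below 0.05 there were 31 members, all higher, beside 6.48% of all tested genes. The libraries were taken to pair by replicate number. With that number as a block 8 of 35 passed, all higher, beside 0.191% of all tested genes. They were psbA, psbE, psbK and psbM of photosystem II, petA and petD of cytochrome b6f, atpF of the ATP synthase and rbcL. DESeq2 without the block gave no p for atpA, psaA, psaB and psbB in any comparison, and called 14 of the other 31 members, all higher, beside 0.443% of all tested genes, and limma-voom called 0. The count of 8 moved with single libraries. It was 0 without CUC2gm-4 1, CUC2gm-4 2, WT 1 or WT 2, 3 without WT 3, and 16 without CUC2gm-4 3. Without cuc2-3 1, 2 and 3 it was 20, 15 and 18. The share of all tested genes ran from 0.0219% to 0.516% over these fits, and no count is set beside its own share here. Each fit filtered genes anew, so the tested members were not always the same 35. Without cuc2-3 3, psbF, psbL, ndhF, ndhG and ndhI were not tested.

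Set against WT, members were higher in cuc2-3 too, with 25 of 38 apart from WT and 13 overlapping, and with 25 of the 35 tested beside 2.87% of all tested genes. The median log2 fold change of the tested members was 2.10, with a range of 0.05 to 4.54. Without cuc2-3 3 it was 1.32 over the members kept in that fit, which left out psbF, psbL, ndhF, ndhG and ndhI. No member passed edgeR's adjusted p, without or with the block, beside 0.0219% of all tested genes in both fits, and 28 of 35 had an unadjusted p below 0.05 without the block, beside 1.96% of all tested genes. DESeq2 called 6 of 31 members, namely atpF, psbC, psbH, ycf4, petA and petD, all higher, beside 0.0766% of all tested genes. This comparison and the preceding one share the WT libraries, so their likeness is no separate evidence.

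Between the mutants none of the 35 members passed in edgeR, and none of the 31 with a p in DESeq2 without the block. CUC2gm-4 against cuc2-3 gave 0 calls in edgeR without the block (0.0164% of all tested genes) and with it (0.0383%), and 0 in DESeq2 (0.137%). Unadjusted p-values below 0.05 were found for 2 of 35 members without the block, psbM and ndhC, beside 3.73% of all tested genes. The median log2 fold change of the tested members was 0.08, and 0.86 over the fewer members kept without cuc2-3 3. CUC2gm-4 libraries lay above all cuc2-3 libraries in 5 members, of which 3, psbK, psbM and ndhC, were among the 35 tested, beside 4.82% of all tested genes.

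**Figure D3:**
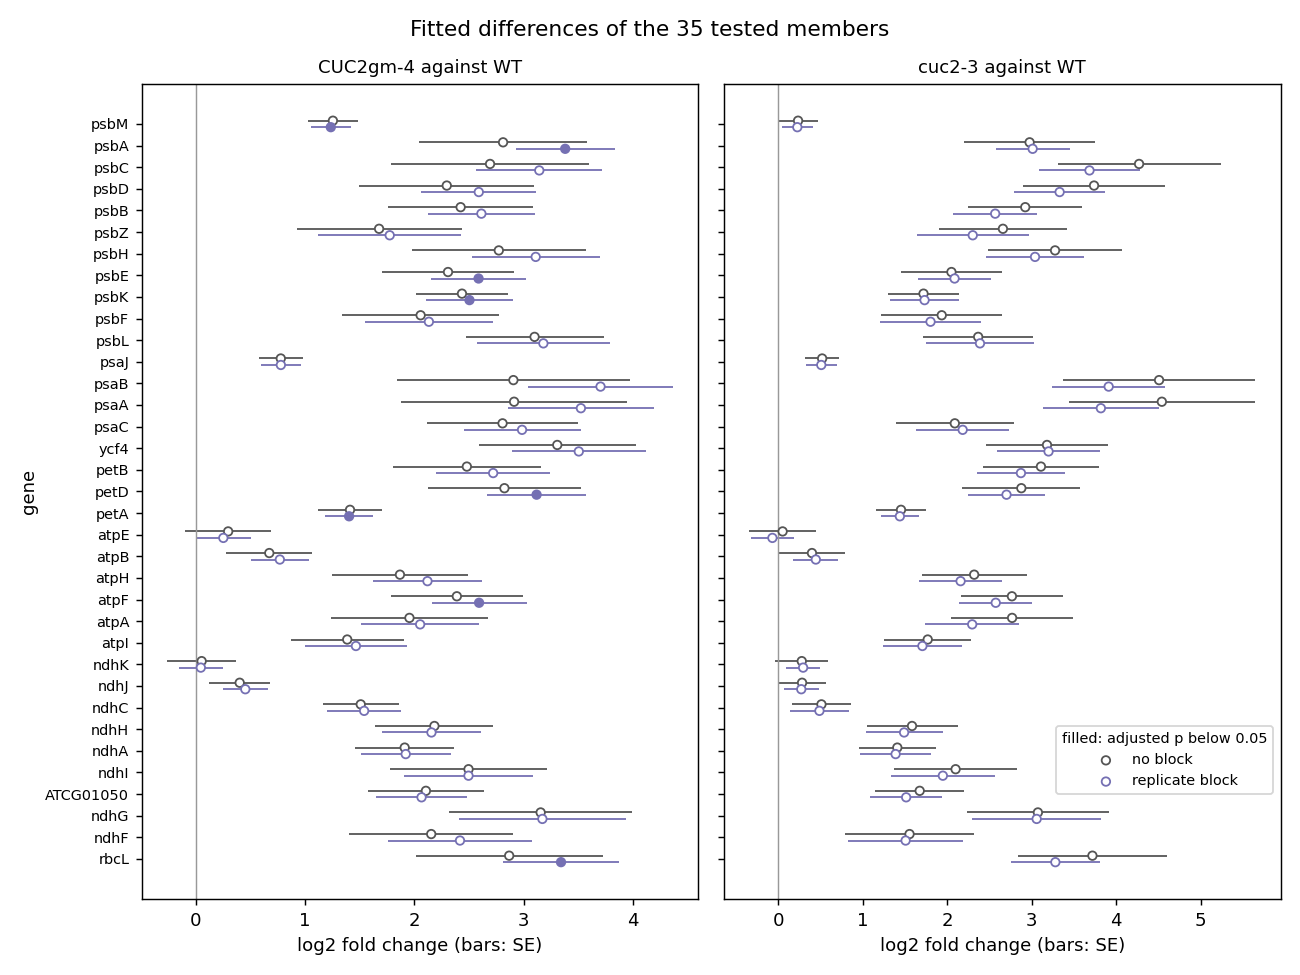
Points give the log2 fold change of each of the 35 tested members in CUC2gm-4 against WT (left) and cuc2-3 against WT (right), in edgeR without (grey) and with (violet) the replicate block; bars are standard errors and filled points have an adjusted p below 0.05. Filled points are the 8 members that passed with the block in CUC2gm-4, and atpE and ndhK lie close to 0 on both sides.

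Photosystem II had 11 tested members, and all 11 were higher in CUC2gm-4 than in WT, with a median log2 fold change of 2.42. Its reaction centre protein D1, encoded by psbA, is the subunit damaged and replaced fastest in the light. The gene was at 5.86, 6.24 and 32.2 normalised CPM in WT 1 to 3, at 67.2, 37.9 and 246 in cuc2-3, and at 81.4, 119 and 113 in CUC2gm-4. WT 3 was far above the other WT libraries but still below every mutant library. In CUC2gm-4 against WT the log2 fold change of psbA was 2.81 ± 0.77 (SE), with an edgeR adjusted p of 0.593. With the block it was 3.38 ± 0.45 with an edgeR adjusted p of 0.020. The partner D2 (psbD) and the inner antennas CP43 (psbC) and CP47 (psbB) had log2 fold changes of 2.30, 2.69 and 2.42 in CUC2gm-4 against WT and did not pass in either fit. Of these, psbC ran from 4.05 to 14.5 in WT, from 24.4 to 408 in cuc2-3 and from 45.4 to 57.5 in CUC2gm-4. In cuc2-3 2, psbD was at 38.3 against 9.17 in cuc2-3 1, while psbC was at 43.8 against 24.4, so the ratio of psbC to psbD ran from 1.15 to 2.67 over the 9 libraries.

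Among the small photosystem II subunits, psbE encodes a subunit of cytochrome b559 and was at 0.685, 0.279 and 1.94 normalised CPM in WT, 2.75, 2.31 and 7.35 in cuc2-3, and at 5.26, 4.83 and 4.91 in CUC2gm-4. Its 3 CUC2gm-4 values were close together and above all WT values. The log2 fold change against WT was 2.31 ± 0.60 (edgeR adjusted p 0.526), and 2.59 ± 0.44 with the block (adjusted p 0.0496). The gene psbK, for a small subunit near CP43, had the smallest p of the members in this comparison in edgeR without the block. It was at 0.374, 0.223 and 0.634 in WT, 1.009, 1.24 and 1.92 in cuc2-3, and at 2.25, 2.34 and 2.33 in CUC2gm-4, with no overlap among the 3 genotypes. Against WT its log2 fold change in CUC2gm-4 was 2.44 ± 0.42 (edgeR adjusted p 0.221), and 2.504 ± 0.39 with the block (adjusted p 0.034). A count of 3 corresponds to between 0.106 and 0.187 normalised CPM here, so WT values of psbK rest on few reads. It is among the 11 members that had no WT library at 1 CPM and were kept through the mutants. The lowest of the complex per length was psbL, for a subunit at the dimer interface, at 0.0623, 0.111 and 0.211 in WT, of which the first pair is below that floor. It was at 0.459, 0.451 and 1.21 in cuc2-3 and at 0.883, 1.79 and 0.981 in CUC2gm-4, and did not pass without or with the block (edgeR adjusted p 0.387 and 0.0703).

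The member psbM, shown above, was the highest of photosystem II per length, in WT and over all libraries. It was at 11.5, 8.19 and 8.71 normalised CPM in WT, 13.1, 10.9 and 9.30 in cuc2-3, and at 23.6, 27.7 and 16.3 in CUC2gm-4. WT and cuc2-3 overlapped, and all CUC2gm-4 values lay above both. Against WT the log2 fold change in CUC2gm-4 was 1.25 ± 0.23 (edgeR adjusted p 0.252), and 1.24 ± 0.18 with the block (adjusted p 0.030). Against cuc2-3 it was 1.02 ± 0.23 (edgeR adjusted p 0.748), and 1.012 ± 0.18 with the block (adjusted p 0.138), the smallest p of any member in that comparison. The 200 bases after its stop codon hold a run of 13 A, the longest there together with that of ndhC, against a median of 6 over the named members. Across the 34 named and tested members, that run and the log2 fold change in CUC2gm-4 against WT had a Spearman rho of -0.16. For the longest coding A run the rho was -0.15, and neither carries a test.

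Photosystem I had 5 tested members, all higher in CUC2gm-4 than in WT with a median log2 fold change of 2.91, and none passed in either edgeR fit. The reaction centre genes psaA and psaB had the highest ratios of highest to lowest library among the 35 members with reads in every library: psaB ran from 2.06 in WT 1 to 396 in cuc2-3 3, a ratio of 193. It was at 2.06, 3.45 and 13.6 in WT, 18.0, 28.3 and 396 in cuc2-3, and at 46.7, 44.2 and 55.0 in CUC2gm-4, so that no WT library reached the lowest mutant library. The ratio of psaB to its neighbour psaA stayed between 0.733 and 1.17 throughout. With the block, the log2 fold change of psaB in CUC2gm-4 against WT was 3.70 ± 0.66 (edgeR adjusted p 0.0574), and without it 2.91 ± 1.07 (0.756). The highest of the complex per length was psaJ, for a small subunit, at 8.16, 8.64 and 9.72 in WT, 14.8, 9.13 and 14.1 in cuc2-3, and at 13.4, 15.1 and 17.0 in CUC2gm-4. Its highest library was 2.08 times its lowest, one of the narrowest spreads, and CUC2gm-4 nevertheless did not overlap WT (log2 fold change 0.78 ± 0.20, edgeR adjusted p 0.526, and 0.156 with the block). The assembly factor gene ycf4 was the lowest of the complex, at 0.125, 0 and 0.338 in WT, 0.963, 0.958 and 2.70 in cuc2-3, and at 1.77, 1.64 and 1.72 in CUC2gm-4. Its edgeR adjusted p in CUC2gm-4 against WT was 0.436, and 0.0559 with the block.

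The cytochrome b6f genes gave 2 of the 8 members that passed with the block. Cytochrome f, encoded by petA, had the smallest p of the members in cuc2-3 against WT in edgeR without the block. It was at 2.12, 2.06 and 2.70 normalised CPM in WT, 4.95, 5.52 and 8.41 in cuc2-3, and at 5.98, 4.48 and 7.93 in CUC2gm-4. Both mutants lay above WT and overlapped each other. The log2 fold change was 1.45 ± 0.30 in cuc2-3 (edgeR adjusted p 0.99995, and 0.12 with the block), and 1.41 ± 0.30 in CUC2gm-4 (0.414, and 0.034 with the block). Subunit IV, encoded by petD, was at 0.810, 0.557 and 1.86 in WT, 3.53, 2.82 and 17.9 in cuc2-3, and at 7.18, 7.62 and 8.83 in CUC2gm-4. The log2 fold change in CUC2gm-4 against WT was 2.82 ± 0.70 (edgeR adjusted p 0.463), and 3.12 ± 0.45 with the block (adjusted p 0.030). Its neighbour petB, for cytochrome b6 and the highest of the complex per length, was at 1.68, 0.836 and 2.37 in WT, 4.54, 6.37 and 31.7 in cuc2-3, and at 9.55, 9.46 and 8.71 in CUC2gm-4. The edgeR adjusted p of petB in CUC2gm-4 against WT was 0.593, and 0.0703 with the block.

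Among the 6 ATP synthase genes, atpB and atpE overlapped between WT and both mutants, while the other 4 lay above WT in every mutant library. The epsilon subunit gene atpE, the highest of all members per length, was at 303, 257 and 212 normalised CPM in WT, 334, 356 and 111 in cuc2-3, and at 455, 260 and 234 in CUC2gm-4. The genotypes overlapped, and cuc2-3 3, the highest library for most members, was the lowest for atpE. Its log2 fold change in CUC2gm-4 against WT was 0.30 ± 0.39 (edgeR adjusted p 0.927), an interval that reaches from below 0 to above it. The catalytic beta subunit gene atpB ran from 213 to 555 in WT, from 260 to 652 in cuc2-3 and from 432 to 762 in CUC2gm-4. Of the others, atpF, for a stator subunit of the membrane part, was at 1.12, 1.34 and 2.41 in WT, 4.81, 4.85 and 23.9 in cuc2-3, and at 8.51, 8.86 and 8.67 in CUC2gm-4, without overlap between WT and either mutant. Its log2 fold change in CUC2gm-4 against WT was 2.39 ± 0.60 (edgeR adjusted p 0.484), and 2.59 ± 0.44 with the block (adjusted p 0.049). The lowest of the complex, atpI for the a subunit, was at 1.495, 0.780 and 1.48 in WT, 2.02, 2.82 and 7.91 in cuc2-3, and at 4.49, 2.74 and 2.62 in CUC2gm-4. The edgeR adjusted p of atpI in CUC2gm-4 against WT was 0.756, and 0.303 with the block.

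The NDH complex had 9 tested members of 12, none passed in either edgeR fit, and the median log2 fold change in CUC2gm-4 against WT was 2.11. The neighbours ndhK and ndhJ, for subunits of the arm that takes up electrons, were the highest per length. The gene ndhK was at 29.4, 19.1 and 16.9 normalised CPM in WT, 30.1, 31.4 and 17.7 in cuc2-3, and at 32.5, 15.9 and 19.4 in CUC2gm-4, with wide overlap and the narrowest spread of the members with reads in every library (highest over lowest 2.04). Between CUC2gm-4 and WT its log2 fold change was 0.05 ± 0.32 (edgeR adjusted p 0.991). The membrane arm subunit gene ndhF was the lowest of all members with reads per length, and in normalised CPM it was at 0.0623, 0.167 and 0.465 in WT, 0.321, 0.282 and 1.53 in cuc2-3, and at 1.20, 1.24 and 0.941 in CUC2gm-4. The remaining NDH genes with reads stayed below 12 normalised CPM in every library, the highest value being 11.8 for ndhH in CUC2gm-4 3.

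The large subunit of Rubisco, the carbon-fixing enzyme, showed one of the widest ranges. Its gene rbcL was at 14.8, 14.3 and 49.3 normalised CPM in WT, 106, 73.0 and 858 in cuc2-3, and at 167, 210 and 198 in CUC2gm-4. All mutant libraries lay above all WT libraries, and WT 3 was above the other WT libraries. In CUC2gm-4 against WT the log2 fold change was 2.87 ± 0.85 (edgeR adjusted p 0.654), and 3.34 ± 0.53 with the block (adjusted p 0.034). In cuc2-3 against WT it was 3.72 ± 0.89 (edgeR adjusted p 0.99995), and 3.28 ± 0.53 with the block (adjusted p 0.126). The 4 nuclear genes of the small subunit went differently: none passed in either fit, and their log2 fold changes in CUC2gm-4 against WT lay between -0.61 and -0.48, with the largest, RBCS1A, at 8808 to 19683 in WT and 6753 to 11542 in CUC2gm-4. Per kb, small subunit RNA exceeded rbcL RNA by factors of 2912, 1690 and 400 in WT, 330, 397 and 22.6 in cuc2-3, against 152, 72.1 and 90.6 in CUC2gm-4. These factors compare RNA that came through the selection for messenger RNA and do not give the ratio in the leaf.

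Among the members, replicate 3 stood out in cuc2-3, and less so in WT. Of the 35 members with reads in all libraries, 27 were higher in cuc2-3 3 than in both other cuc2-3 libraries and 5 were lower, with a median ratio of 3.29 to the mean of those libraries. The 5 highest ratios were those of psaA, psaB, psbC, rbcL and atpA (8.21 to 17.7), and the lowest were those of atpE (0.32), atpB (0.45), ndhJ (0.57), ndhK (0.58) and psbM (0.77). In WT 3, 22 of 35 were above both other WT libraries, with a median ratio of 1.30. The matching shares of all genes are not given here, so these counts describe the members only. In CUC2gm-4 1 to 3, the members without atpB and atpE summed to 617, 693 and 710 normalised CPM. There, 5, 4 and 5 of the 35 members had their highest value of any library. Clock genes set replicate 3 apart in each genotype, CUC2gm-4 included. GI, an evening gene, was at 55.6, 68.7 and 64.98 normalised CPM in the libraries numbered 3 and at 87.7 to 188 in the other libraries. The morning gene CCA1 was at 3.6, 8.9 and 11.2 against 1.7 to 4.9. The part of sampling time in the member levels was not tested. Without replicate 3 of every genotype, edgeR called 13 of 29 tested members in CUC2gm-4 against WT, beside 0.111% of all tested genes, and 5 of 29 in cuc2-3 against WT, beside 0.0446%.

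**Figure D4:**
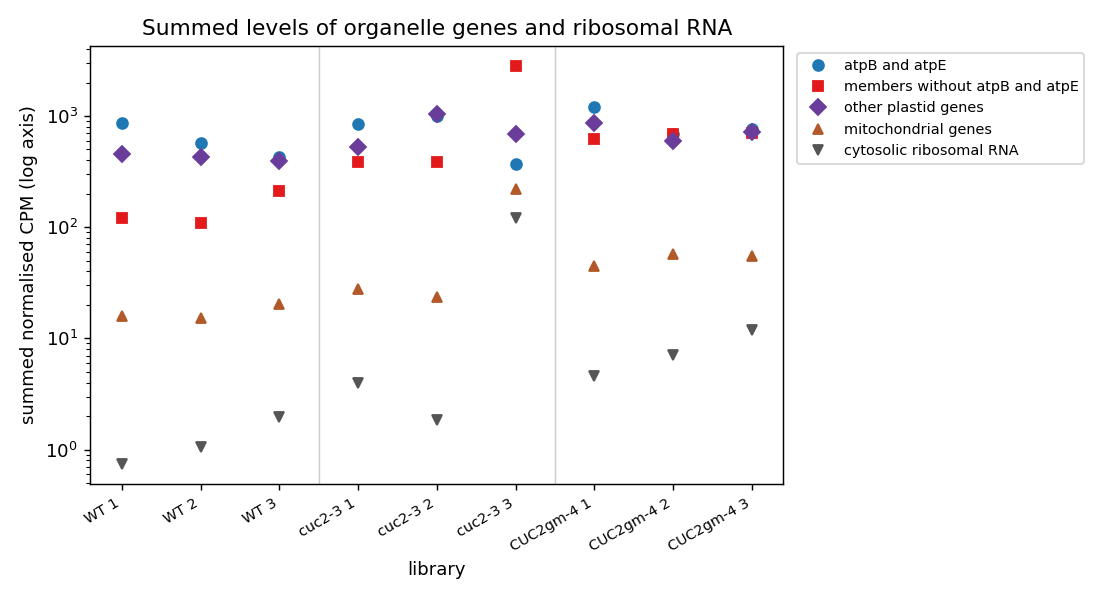
Points give, for each of the 9 libraries on a log axis, the summed normalised CPM of atpB and atpE, of the other 38 members, of 49 other plastid genes, of 146 mitochondrial genes and of the cytosolic ribosomal RNA locus. The sum of the other 38 members, the mitochondrial sum and the ribosomal RNA are each highest in cuc2-3 3, where atpB and atpE are lowest.

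Scaled to the summed counts of the plastid genes other than ribosomal and transfer RNA, members passed unevenly by gene. The members themselves made up 57.2% to 82.3% of that total, so this scale sets each member against a total that consists largely of members. Of the members' counts, atpB and atpE gave 87.6% in WT 1 and 11.6% in cuc2-3 3. A change on this scale thus depends in large part on the levels of atpB and atpE. This scale lowers the median log2 fold change of all tested genes to -0.96 in CUC2gm-4 against WT and to -1.07 in cuc2-3 against WT, and the changes here are relative to that total. In CUC2gm-4 against WT, 19 of 35 members passed as higher, beside 0.241% of all tested genes, and ndhK passed as lower (log2 fold change -0.91 ± 0.40, edgeR adjusted p 0.0466, and 0.078 with the block), as did 9440 of the 18291 tested genes. The higher members were 8 of photosystem II, 4 of photosystem I, 2 each of cytochrome b6f, ATP synthase and NDH, and rbcL, with psaA at 1.89 ± 0.40 (edgeR adjusted p 0.000606) as an example. In cuc2-3 against WT 15 of 35 passed, all higher, beside 0.186% of all tested genes, with psaA at 2.85 ± 0.42 (edgeR adjusted p 1.76e-08). On this scale psbM, petA and psaJ did not pass in either comparison, and the log2 fold change turned negative for psaJ (-0.17 in CUC2gm-4, -0.55 in cuc2-3) and atpE (-0.68, -0.84) in both, and for psbM (-0.75) in cuc2-3. With the block, 14 members passed as higher in CUC2gm-4 against WT on this scale, beside 0.159% of all tested genes. In cuc2-3 against WT 13 passed as higher, beside 0.131%, and atpE as lower (log2 fold change -1.11, edgeR adjusted p 0.0404). The share of all tested genes that passed as lower in that fit is not given here.

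Other plastid and mitochondrial RNAs were higher in the mutants as well. The 49 other plastid genes that encode no ribosomal or transfer RNA summed to 390 to 458 normalised CPM in WT, 529 to 1041 in cuc2-3 and 601 to 857 in CUC2gm-4. Of these, 29 were tested, with a median log2 fold change of 1.19 in CUC2gm-4 and 0.99 in cuc2-3 against WT. One, ATCG00040, passed with the block in CUC2gm-4 against WT (log2 fold change 3.21 ± 0.30, edgeR adjusted p 0.00148). It was at 1.43, 1.17 and 3.80 in WT, 5.59, 4.51 and 8.48 in cuc2-3, and at 14.4, 21.1 and 20.4 in CUC2gm-4. The 4 subunits of the plastid-encoded polymerase (rpoA, rpoB, rpoC1 and rpoC2) had log2 fold changes of 0.60 to 1.64 in CUC2gm-4 against WT, and none passed. Of 146 mitochondrial genes 16 were tested: all 16 were positive in both comparisons with WT, with medians of 2.23 and 2.87, and none passed in either edgeR fit. The difference between the members and these genes was not tested. The filter of at least 1 CPM in at least 3 libraries can keep such genes through the mutants. Their counts and medians therefore describe the kept genes only.

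None of the listed nuclear genes whose products act with the members passed in either edgeR fit. Other such genes are not described here. In CUC2gm-4 against WT, log2 fold changes were negative in 10 of 10 nuclear photosystem II genes (median -0.40), 12 of 12 of photosystem I (-0.40), 7 of 7 of cytochrome b6f and electron carriers (-0.34), 3 of 3 of ATP synthase (-0.40) and 10 of 12 of NDH (-0.36). In cuc2-3 against WT the same medians lay between -0.19 and 0.11. Of the 6 sigma factors and the phage-type polymerase, none passed, with log2 fold changes of -0.52 to 0.45 in CUC2gm-4 against WT. For 9 nuclear factors that process or stabilise plastid RNA, among them HCF173, HCF107 and MRL1, they lay between -0.21 and 0.07, and none passed.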

How the data were processed

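RNA of 9 libraries (3 WT, 3 cuc2-3, 3 CUC2gm-4) was selected for messenger RNA and sequenced single-end and stranded on an Ion Torrent Proton, per the labels' protocols. The deposited values are whole-number read counts per gene model, made by the authors with sam2pkm, which dropped reads whose best and second-best alignment scores were equal, per the file headers. Per the submitters' processing notes the genome was TAIR10. Neither aligner nor strand setting is given in the sources used here. This removes reads of genes with identical copies.

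From these counts, edgeR 4.0.16 (R 4.3.3) was run on the whole table: genes with at least 1 CPM in at least 3 libraries, TMM factors, a quasi-likelihood fit with genotype as factor over all 9 libraries, and Benjamini-Hochberg adjustment over 18291 genes at 0.05. SE is the log2 fold change divided by the square root of F. DESeq2 1.42.0, limma 3.58.1 and other filters, scales and libraries were tried as alternatives. The procedure was also run on simulated counts with known changes and no replicate effect, and the outcome is not given here. The genotypes share replicate numbers. Residuals of same-numbered libraries around their genotype means had correlations of 0.198 to 0.586 (9 pairs), against -0.477 to 0.188 for other numbers (18 pairs). The ranges nearly touch, and residuals around a shared mean are not independent of each other. On this the numbers were taken to pair the libraries, and the block's value stands beside results it changes. The pairing was drawn from these same data. No label gives the meaning of a number. Levels per kb use the deposited model length. A count of 3 is taken as the floor.

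Values in every library were to be given for the highest and lowest member per kb of each complex, members that passed in either fit, and the smallest p per comparison; psaB and psbC, and other examples beyond these, were added after their values were seen. The members and all lists were chosen with earlier results of these data known.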

Additional observations from a re-analysis of the deposited data

How the results depend on the processing

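Direction was steadier than calls. In CUC2gm-4 against WT the members' median log2 fold change of 2.30 stayed positive, at 1.31 scaled to the plastid total (1.46 with the replicate block), 2.53 with the block in DESeq2, 2.54 without replicate 3 of every genotype and 2.11 to 2.71 with 1 library left out (1.98 to 2.84 with the block). In cuc2-3 against WT the median of 2.10 became 2.75 at a minimum of 5 CPM, 0.82 on the plastid total (0.94 with the block) and 1.32 to 2.83 with 1 library left out, lowest without cuc2-3 3. Between the mutants, 0.08 became 0.89 without replicate 3 of every genotype and -0.17 to 0.86 with 1 library left out (at most 0.71 with the block, highest without cuc2-3 3 in both). The number of members called in CUC2gm-4 against WT was 0 by edgeR, 8 with the replicate block (8 with scaling on nuclear genes), 14 by DESeq2, 24 by DESeq2 with the block, 2 with only these genotypes in the fit, 20 on the plastid total (14 with the block), 13 without replicate 3 of every genotype, and 0 to 3 with 1 library left out, the 3 being without cuc2-3 3. With the block it was 34 with no count minimum, 15 without replicate 3 of every genotype and 0 to 20 with 1 library left out (16 without CUC2gm-4 3, and 20, 15 and 18 without cuc2-3 1, 2 and 3). In cuc2-3 against WT, 0 became 6 by DESeq2, 15 by DESeq2 with the block, 15 on the plastid total (14 with the block, atpE among them as lower) and 5 without replicate 3 of every genotype. With the block it became 25 with no count minimum, 6 without replicate 3 of every genotype and 0 to 12 with 1 library left out. Between the mutants, 1 member was called by DESeq2 with the block and 2 by edgeR with the block and no count minimum. The blocked fits with no count minimum or without replicate 3 were chosen after seeing the data. With no count minimum, the 38 members with reads were tested. Fits with libraries left out filtered genes anew, so their tested members can differ from those of the full fit. Shares of all tested genes are given above only for some of these fits. For the others, calls gained by the members cannot be set beside those gained by all genes. Signs turned for psbM in cuc2-3 (-0.75 on the plastid total, -0.86 with the block), for psaJ (-0.55 and -0.56 in cuc2-3, -0.17 and -0.17 in CUC2gm-4), for ndhK (-0.65 and -0.78 in cuc2-3, -0.91 and -0.92 in CUC2gm-4) and for atpE (-0.84 and -1.11 in cuc2-3, -0.68 and -0.74 in CUC2gm-4). For atpE in cuc2-3 it was also -0.11 by limma-voom, -0.0714 with the block, -0.0828 with the block in DESeq2 and -0.0684 with the block on nuclear genes. With 1 library left out, atpE ran from -0.21 to 0.42 in cuc2-3 and from -0.060 to 0.47 in CUC2gm-4, and ndhK from 0.12 to 0.54 and from -0.30 to 0.31. With the block and 1 library left out, atpE in cuc2-3 was negative at -0.0636, -0.104 and -0.096 without CUC2gm-4 1, 2 and 3, at -0.211 and -0.182 without WT 1 and 2, and at -0.107 and -0.451 without cuc2-3 1 and 2. Likewise ndhK was at -0.022 in cuc2-3 without cuc2-3 2, and in CUC2gm-4 at -0.0765 and -0.0888 without CUC2gm-4 1 and 3 and at -0.000873 without WT 2. The cause of these shifts was not tested. Members with WT values under 3 counts, such as psbL, ycf4 and ndhF, are limited by depth.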
